A study of Mus musculus with 5 samples.

Results

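In uninjured hindlimb muscle, 175 Prx1-derived cells carried transcripts of at least 3 of the 7 genes Cyp2f2, Meox1, Fst, Gng8, Dkk2, Anxa8 and H19. They were 175 of the 4632 cells of the d0 scRNAseq library that passed the filter, or 3.78% (95% exact Clopper-Pearson interval 3.25 to 4.37%), and of 29831 cells in the 5 libraries together. A cell passed with 350 to 8000 detected genes, under 20% of its UMIs (unique molecular identifiers, 1 for each captured transcript) on mitochondrial genes and at least 1000 UMIs. Because the cells were chosen on measured transcripts of the 7 genes, the levels of those genes in them describe the choice and are not a result.

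The cells were sorted as GFP+ from skeletal muscle of Prx1Cre;mTmG mice on a C57Bl/6 background, 10 to 14 weeks old and of either sex. In this model the Prx1 (Prrx1) promoter drives Cre in limb bud mesenchyme and a cell keeps GFP afterwards, so that GFP records descent and not present Prrx1 expression. Each library pooled the muscle of 2 mice, and tissue of the bone itself was left out. The other libraries came from d3 and d5 after tibial fracture and d3 and d5 after polytrauma, in which the adjacent muscle was also injured.

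Mesenchymal cells of the muscle interstitium, known as fibro-adipogenic progenitors or mesenchymal progenitors (FAP/MP), lie between the fibres and along vessels and nerves, make matrix, and can become fibroblasts or fat cells, and after fracture cartilage and bone. They are commonly recognised by Pdgfra, Ly6a (Sca1) and Cd34. The genes that define the cells described here include a secreted modulator of Wnt signalling (Dkk2, a ligand of the co-receptors Lrp5 and Lrp6), a secreted binder of activins and myostatin (Fst, follistatin), a homeobox transcription factor of the embryonic somite (Meox1), a cytochrome P450 monooxygenase best known from the club cells of the airway (Cyp2f2), a gamma subunit of heterotrimeric G proteins (Gng8), a calcium-dependent membrane-binding annexin (Anxa8) and an imprinted long noncoding RNA of fetal tissues (H19).

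With 1 library per condition there was no replicate, cells of 1 library are not replicates, and no difference was tested. Levels are UMIs summed over a group of cells and scaled to a common total (CPM, counts per 1e6 UMIs). Since the libraries read the 3' end of each transcript and hold 1 molecule per UMI, CPM was not divided by gene length and is compared for the same gene between groups of cells only. Intervals in brackets are exact 95% Poisson intervals for CPM and exact Clopper-Pearson intervals for shares of cells, and they cover counting error only, not differences between mice. A gene was counted as higher or lower in the members if it differed at least 2-fold, with at least 20 CPM and a UMI in at least 10% of cells in the higher group.

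The d0 library held 5653 barcodes, of which 5367 met the limits on genes and mitochondrial share. The members had a median of 4057 UMIs per cell (1065 to 13867) and 1547 genes, and the other 4457 cells 3620 UMIs and 1367 genes. The median mitochondrial share was 3.12% in members and 3.14% in the rest. Members were therefore slightly deeper, and a deeper cell has more chances to show 3 genes. Among the members 2 shared their barcode with another library and 13 (7.43%) were among the highest doublet scores, against 83 and 206 (4.62%) of the other cells. EGFP, the reporter of the sort, had a UMI in 98.9% of members and 97.3% of the rest, and tdTomato had none in either group.

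As a check of the name progenitor, at least 3 of the 5 FAP/MP markers Prrx1, Cxcl12, Pdgfra, Ly6a and Cd34 had a UMI in 145 of the 175 members (82.9%) and in 2365 of the other 4457 cells (53.1%). Summed over cells, none of the 5 differed 2-fold between the groups. Pdgfra was at 238 CPM in members and 154 CPM in the rest, Ly6a at 1142 and 972 CPM, and Cd34 at 662 and 690 CPM. Most members thus carried the FAP/MP transcripts, while 30 fell short of 3 markers. Whether any of these cells acts as a progenitor was not measured.

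The 7 selection genes were sparse even in the cells they define. No cell had 6 or 7 of them, 15 cells had 5, 44 had 4 and 116 had 3. Outside the limit, 385 cells had 2, 1246 had 1 and 2826 had none. Fst was found in 153 members (87.4%), Meox1 in 128 (73.1%), Gng8 in 83 (47.4%), H19 in 71 (40.6%), Dkk2 in 67 (38.3%), Cyp2f2 in 58 (33.1%) and Anxa8 in 39 (22.3%). A positive member held a median of 1 or 2 UMIs of each gene. Of H19, a single cell held 57 of the members' 392 UMIs.

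The choice also sets which part of the cells with a given gene were members. Members were 56.3% of the 103 d0 cells with a Cyp2f2 UMI and 40.1% of the 207 with Gng8. They were 17.2% of the 892 cells with Fst and 19.6% of the 652 with Meox1, with Anxa8 (28.3% of 138), Dkk2 (23.9% of 280) and H19 (20.7% of 343) in between. These shares describe the selection and rank nothing beyond it.

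In CPM, Cyp2f2 (chromosome 7, 27119909 to 27133660, plus strand; GRCm38 throughout) stood at 135 in members and 3.54 in other cells. Gng8, on the same chromosome (16891786 to 16895436, plus strand), stood at 140.3 and 8.52. H19, a lincRNA near the far end of that chromosome (142575529 to 142578143, minus strand), stood at 509 and 54.2. These 3 genes share a chromosome but are not neighbours. Meox1 (chromosome 11, 101877510 to 101894374, minus strand) was at 314 CPM against 54.7 CPM. Fst (chromosome 13, 114452290 to 114458951, minus strand) was at 382 CPM against 74.1 CPM. Dkk2 (chromosome 3, 132085292 to 132180304, plus strand) was at 213 CPM against 23.0 CPM, and Anxa8 (chromosome 14, 34085981 to 34100571, plus strand) at 63.6 CPM against 10.9 CPM.

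Cells just outside and just inside the limit had nearly the same depth, with a median of 3971 UMIs for those with 2 genes and 4061.5 for those with 3. Cyp2f2 had a UMI in 5.45% of the former and 21.6% of the latter, Gng8 in 14.8% and 36.2%, Meox1 in 45.2% and 65.5%, and Fst in 64.9% and 83.6%. Dkk2 went from 26.2 to 35.3% and Anxa8 from 10.4 to 18.97%, and H19 moved least, from 33.0 to 38.8%. The commonest pair just outside was Meox1 with Fst, in 88 of the 385 cells. Just inside, Meox1, Fst and Gng8 together made up 24 of the 116 cells, Fst, Dkk2 and H19 15 cells, and Meox1, Fst and Dkk2 11 cells. A rise across the limit is fixed by the choice itself.

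To measure each gene in cells that it had not helped to choose, cells with at least 3 of the other 6 genes were compared with the rest of the library for the gene left out. The 7 genes had themselves been chosen together with earlier results of these data known. Leaving a gene out of the choice of cells does not undo that, so the ratios are a description. All 7 genes were higher in cells chosen by the other 6. Cyp2f2 was found in 33 of 150 such cells (22.0%) and in 1.56% of the rest, at 98.2 and 5.73 CPM, a 17.1-fold ratio. Gng8 followed with 41 of 133 cells (30.8% against 3.69%), at 101 and 11.3 CPM, or 8.95-fold.

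For the other 5 genes the ratio lay between 2.72-fold and 5.38-fold. Dkk2 was at 148 CPM against 27.5 CPM (5.38-fold), H19 at 299 against 66.8 CPM (4.48-fold), Fst at 343 against 82.5 CPM (4.15-fold) and Meox1 at 242 against 61.4 CPM (3.93-fold). Anxa8 was the weakest, at 33.9 against 12.5 CPM (2.72-fold). After each cell had been thinned to 2000 UMIs, so that depth no longer differed, which left out 744 shallower cells (11 of them members), the ratio was 14.0-fold for Cyp2f2, 14.9-fold for Gng8, 6.00-fold for Dkk2, 4.16-fold for Fst, 3.89-fold for Meox1 and 2.99-fold for Anxa8. Thinned Anxa8 rested on 4 UMIs in 4 of 57 cells, and its intervals overlapped (9.56 to 89.8 against 9.45 to 14.4 CPM). H19 stood at 117 against 73.7 CPM, or 1.59-fold, with overlapping intervals (58.4 to 209 against 67.7 to 80.0 CPM). The share of cells with H19 was 19.1% (9 of 47) against 5.62%. Among cells with 3 or more FAP/MP markers the ratio for Anxa8 was 1.68-fold, with overlapping intervals. For the other 6 genes it was between 3.59-fold and 14.96-fold.

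**Figure D1:**
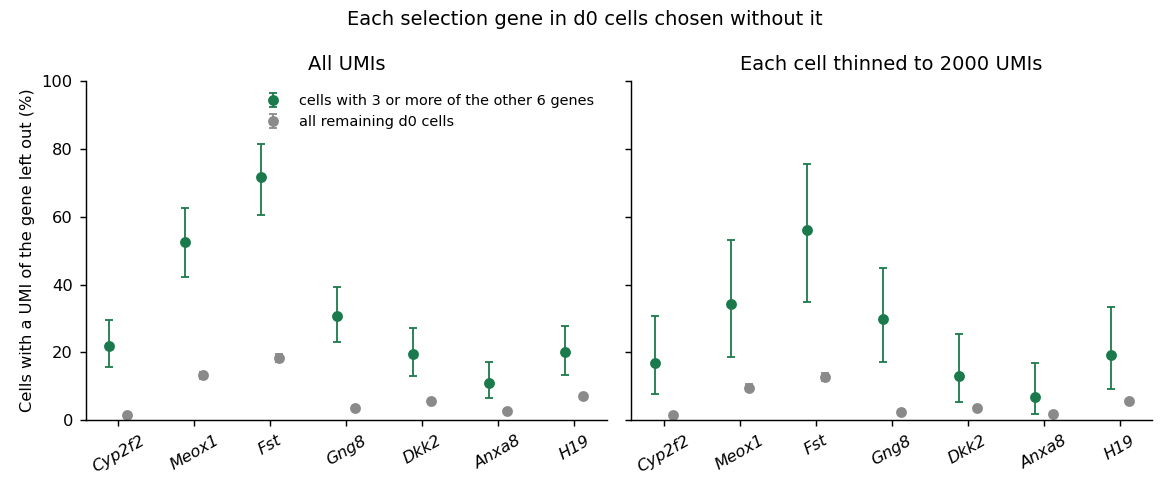
Share of d0 cells (%, vertical axis) with a UMI of each selection gene, in cells chosen by at least 3 of the other 6 genes and in the remaining cells, with all UMIs (left) and after thinning to 2000 UMIs per cell (right); bars are exact 95% binomial intervals that cover counting error only. With all UMIs each gene was found in a larger share of the chosen cells, from 11.1% against 2.70% for Anxa8 to 71.8% against 18.4% for Fst.

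The genes were found together to different extents, and no difference between pairs was tested. Over all 4632 cells, Gng8 was found in 33 of the 103 cells with Cyp2f2 (32.0%) and in 3.84% of those without. Conversely, Cyp2f2 was found in 15.9% of cells with Gng8 and 1.58% of those without, which was the largest ratio (10.1-fold) of the pairs. Meox1 was in 54.4% of cells with Cyp2f2 against 13.2% without. Dkk2 was in 11.7% of Cyp2f2 cells against 5.92% of the rest. H19 was in 18.2% of cells with Dkk2 against 6.71% without. A deeper cell has more chances to show any gene, so these ratios can contain an effect of depth, which was not tested.

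When the d0 cells were clustered without the 7 genes among the variable genes, 120 of the 175 members (68.6% [61.1 to 75.4]) fell into cluster 5 of 9 clusters. The same cluster held 425 of the 4457 other cells (9.54%). Its leading genes included Clu, Myoc, Cdh11, Arhgdib and Scara3, all 5 FAP/MP markers stood above the mean of the other clusters in it, and 79.8% of its 545 cells had 3 or more of them. Members were 22.0% [18.6 to 25.7] of cluster 5, so that most of its cells did not meet the selection. Of the remaining members, 19 lay in cluster 8 (318 cells), 14 in cluster 1, and 5 among the 747 pericyte-like cells of cluster 3. In cluster 8 all 8 tenocyte markers stood above the mean of the other clusters. Its leading genes included Bglap2, Matn3, Wif1, Chad and Cilp2.

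The share of cells in cluster 5 went up with the number of selection genes. It was 3.18% of cells with none, 14.4% with 1, 40.5% with 2, 63.8% with 3, 75.0% with 4 and 86.7% with 5. In thinned cells it was 4.80, 21.8, 50.7, 81.6 and 84.6% for 0 to 4 genes, and 66.7% of the 3 cells left with 5. Only the count of selection genes was thinned here, and the clusters were those of all UMIs. The intervals for 3 genes [68.0 to 91.2] and 4 genes [54.6 to 98.1] overlapped. Of the 65 cells that still met the selection after thinning, 53 (81.5%) lay in cluster 5, against 428 of 3823 other thinned cells (11.2%). At the lower clustering resolution of 0.3 the corresponding cluster held 70.9% of members, at 0.8 it held 69.1%, and with the 7 genes kept among the variable genes 72.6%.

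**Figure D2:**
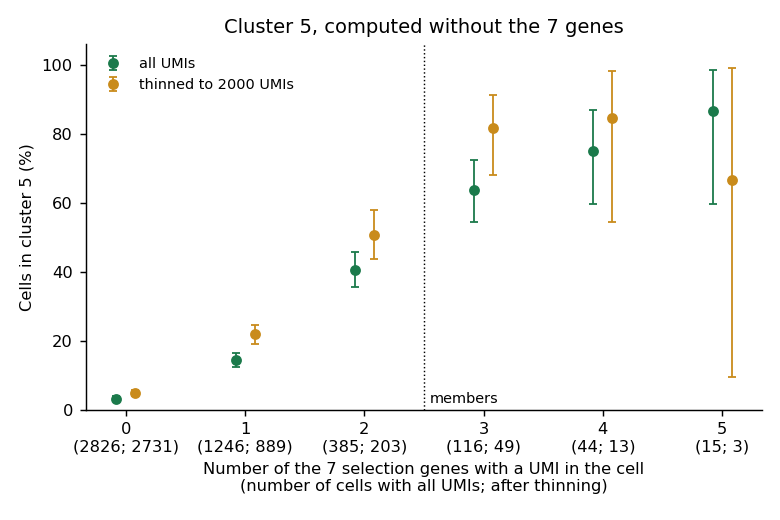
Share of d0 cells in cluster 5 (%, vertical axis) by the number of selection genes with a UMI in the cell (horizontal axis, with the number of cells), for all UMIs and after thinning to 2000 UMIs per cell, with exact 95% binomial intervals. The share went from 3.18% of cells with none of the genes to 86.7% of the 15 cells with 5.

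Free RNA in the droplets can place a stray UMI in any cell. The pericyte-like cluster was taken as a cell type assumed to lack these genes. It had a median of 4332 UMIs, and its 5 members among 747 cells were kept. In it Cyp2f2 had a UMI in 0.40% of cells, Anxa8 likewise in 0.40%, Gng8 in 0.94%, Dkk2 in 1.20%, Meox1 in 1.87%, H19 in 2.54% and Fst in 4.02%. The non-members of cluster 5 had a median of 3422 UMIs and stood well above this, with Meox1 in 35.5%, Fst in 38.4%, H19 in 10.6%, Dkk2 in 10.1%, Gng8 in 8.0%, Anxa8 in 6.82% and Cyp2f2 in 6.12% of cells. Most of these cells had no UMI of any given selection gene.

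Across the whole d0 library, 4543 genes reached the limits on level and detection. Of these 113 (2.49%) were higher in the members and 170 (3.74%) were lower. The 7 selection genes and the mitochondrial genes were left out of all these counts. The median log2 ratio over all genes was 0.08.

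The 20 genes with the largest ratio were led by Clu (clusterin, a secreted chaperone), at 413 CPM [369 to 461] in members and 56.5 CPM [52.9 to 60.2] in the rest, a 7.32-fold ratio. Clu had a UMI in 43.4% of members and 9.72% of other cells. Myoc (myocilin, a secreted glycoprotein of the matrix) was by far the most abundant, at 2955 CPM against 857 CPM (3.45-fold), and was found in 91.4% of members and 56.2% of other cells.

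Several of the others act at the cell surface. Tmem176a and Tmem176b, neighbouring genes for membrane proteins, were at 164 against 37.3 CPM and at 265 against 79.5 CPM. Boc, a co-receptor for hedgehog ligands, was at 136 against 40.0 CPM. Cdh11, a cadherin of mesenchymal cells, was at 88.3 against 22.7 CPM, and it was found in 25.1% of members. Scara3, a scavenger receptor, was at 116 against 35.2 CPM, and Slc1a3, a glutamate transporter, at 49.4 against 12.7 CPM. Lpar4, a receptor for lysophosphatidic acid, was at 52.0 against 15.1 CPM.

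Secreted regulators formed another set. Igfbp3, which binds insulin-like growth factors, was at 122 against 26.5 CPM (4.60-fold). Pappa, a protease that cleaves binding proteins of this family, was at 50.7 against 13.3 CPM. Angpt4, a ligand of the Tie2 receptor, was at 54.5 against 8.88 CPM (6.14-fold), but within thinned FAP/MP-type cells its log2 ratio was -0.50. For Igfbp3, 22.3% of the members' UMIs came from a single cell, and for Angpt4 19.05%, so these levels rested on few cells. The complement genes C2 and Cfb were at 67.5 against 19.2 CPM and at 90.9 against 27.1 CPM.

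The rest of the 20 work inside the cell or are little studied. Arhgdib, a regulator of small GTPases, was at 76.6 against 17.0 CPM. Ap1s2, a subunit of a clathrin adaptor, was at 71.4 against 19.8 CPM. The esterase gene Ces2g was at 46.8 against 9.96 CPM, with 25.0% of its UMIs in members from a single cell. Phlda3, 2200002D01Rik and Cmbl completed the set at 59.7, 61.0 and 32.5 CPM against 17.3, 14.0 and 9.48 CPM. Cmbl rested on 25 UMIs in members, 20.0% of them from a single cell.

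**Figure D3:**
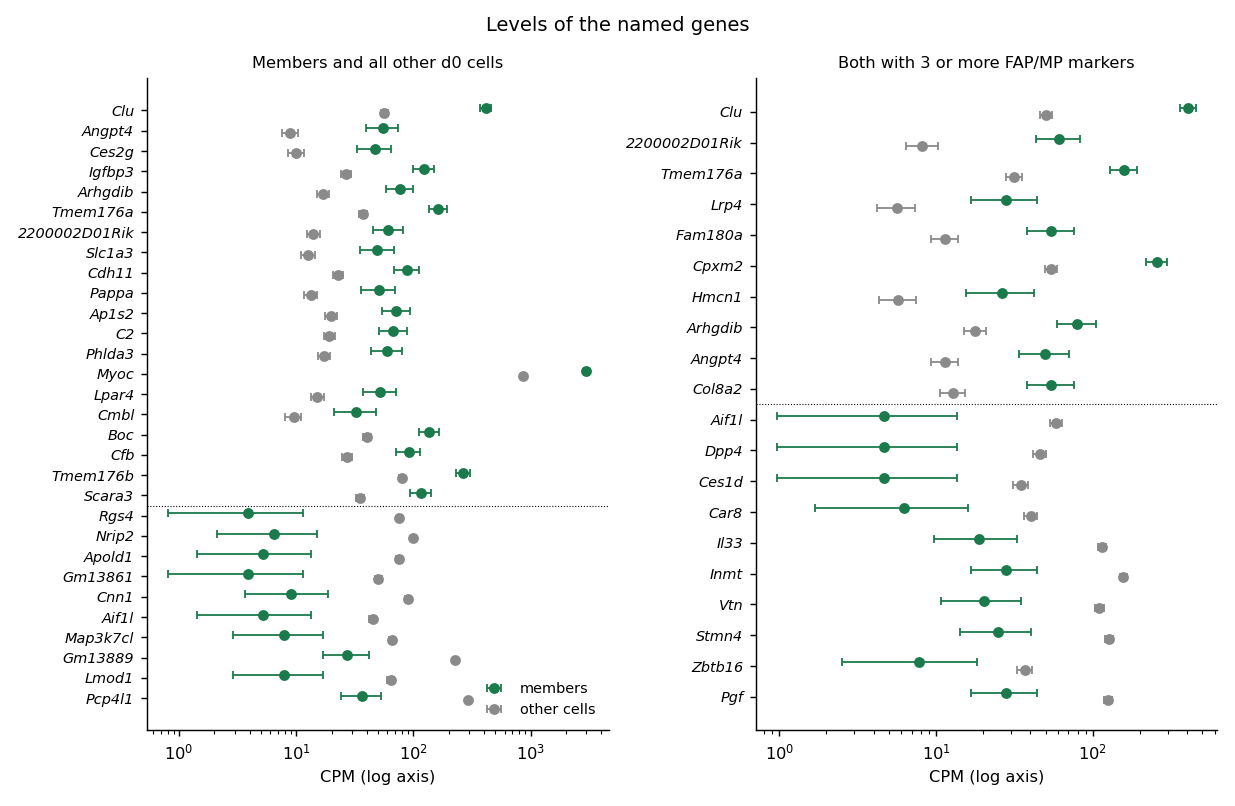
Level (CPM, log axis) in members and in other d0 cells of the genes with the largest ratios, higher genes above and lower genes below the dotted line, against all other cells (left) and within cells with 3 or more FAP/MP markers (right, the 10 largest ratios in each direction); bars are exact 95% Poisson intervals that cover counting error only. On the left, the ratios of the 20 higher genes ran from 7.32-fold for Clu down to 3.28-fold for Scara3 and the lower genes lie 8.10-fold or more below the other cells.

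The 10 genes with the largest deficit in members included smooth muscle genes. Rgs4, a regulator of G protein signalling, was at 3.90 CPM in members and 75.9 CPM in other cells. Cnn1 (calponin) was at 9.09 against 89.6 CPM and Lmod1 (leiomodin) at 7.79 against 63.8 CPM, both of them proteins of smooth muscle filaments. Nrip2, Pcp4l1 and Gm13889 were at 6.49, 36.4 and 27.3 CPM against 99.7, 295 and 228 CPM, and Apold1, Gm13861, Aif1l and Map3k7cl at 3.90 to 7.79 CPM against 45.0 to 74.9 CPM. The pericyte-like cluster, of which 5 of 747 cells were members, was among the comparison cells. With it left out, a comparison added after the data were seen, 8 of these 10 genes (all but Rgs4 and Aif1l) were instead above the other cells, on few UMIs and by log2 ratios of 0.43 to 2.26, and the number of lower genes was 80 in place of 170. In the pericyte and smooth muscle list, again with the pericyte-like cluster among the comparison cells, 6 of the 7 genes at the limits were lower (3.74% of all genes were), with summed levels of 779 CPM in members against 5013 CPM (most abundant Acta2, at 379 CPM in members).

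Within cells that had at least 3 FAP/MP markers, 145 members were compared with 2365 others. Of 4622 genes at the limits, 126 (2.73%) were higher and 111 (2.4%) lower. Here the pericyte list did not separate the groups, at 685 against 771 CPM, and Clu again led, at 407 against 50.3 CPM (8.09-fold). Of the 15 genes with the largest ratios, 7 were already among the 20 above. They were Clu, 2200002D01Rik, Tmem176a, Arhgdib, Angpt4, Slc1a3 and Cdh11.

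Others in this set included genes of matrix proteins. Cpxm2, a secreted carboxypeptidase-like protein, was at 256 against 54.0 CPM and in 49.7% against 10.9% of cells. Comp, a matrix protein of tendon and cartilage, was at 418 against 103 CPM (4.07-fold). Col8a2, a short-chain collagen, was at 54.5 against 12.8 CPM, and Hmcn1 (hemicentin) at 26.5 against 5.75 CPM. Lrp4, a receptor for agrin that also takes part in Wnt signalling, was at 28.0 against 5.65 CPM. Against other cells of clusters 5 and 8 alone, Comp and Col8a2 were instead below them (log2 ratios -0.34 and -0.29). Fam180a was at 54.5 against 11.4 CPM, and Cacna1g, a T-type calcium channel, at 45.2 against 11.3 CPM.

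The 10 genes with the largest deficit in members within FAP/MP-type cells were of several kinds. Dpp4, a surface peptidase, was at 4.67 against 45.9 CPM, and Stmn4, a stathmin, at 24.9 against 127 CPM. Il33, an alarmin, was at 18.7 against 115 CPM, Inmt, a methyltransferase, at 28.0 against 157 CPM, and Vtn (vitronectin) at 20.3 against 110 CPM. Pgf, a growth factor of the VEGF family, was at 28.0 against 125 CPM. Ces1d, Car8, Zbtb16 and Aif1l were at 4.67 to 7.79 CPM against 34.7 to 58.4 CPM. Against other cells of clusters 5 and 8 alone, Stmn4, Vtn and Car8 were instead above them (log2 ratios 0.54, 0.47 and 0.13).

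Of the 8 genes at the limits in a list of genes typical of Pi16/Dpp4 fibroblasts, 6 were lower and none higher in members within FAP/MP-type cells, where 2.4% of all genes were lower, with a median log2 ratio of -1.49 beside 0.06 for all genes. Against all other cells 2 of 6, Pi16 and Anxa3, were lower (3.74% of all genes were), with a median of -0.95. Pi16 itself, a secreted peptidase inhibitor, was at 558 against 1655 CPM, and Anxa3 at 146 against 469 CPM. Over cells, however, at least 2 genes of the list had a UMI in 82 members (46.9%) and 44.1% of all other cells, and in 27.7 and 33.4% after thinning. For the other groups of progenitor genes the shares were small in both. Pi16 and Stmn4 were both found in 8 members (4.57%) and in 520 other cells (11.7%). At least 2 of Hsd11b1, Cmklr1 and Mme were found in 8 members and 469 others (4.57% against 10.5%), at least 2 of Gdf10, Hhip and Inmt in 3 members and 220 others (1.71% against 4.94%), and at least 2 of Dlk1, Trf and Saa1 in 3 members and 107 others (1.71% against 2.40%). Gdf10 alone, a BMP-like ligand, ran the other way, at 101 CPM in members and 35.5 CPM in other cells.

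Since most members lay in cluster 5, they were also set against the other 425 cells of that cluster. Of 4271 genes at the limits, 76 (1.78%) were higher and 61 (1.43%) lower in the 120 members. The 20 named genes, which had been picked for their ratio in these same members, were 2-fold or more above the rest of the cluster in 10 cases, and 13 had intervals that did not overlap. The other cells of cluster 5 were at least 2-fold above non-members outside the cluster for 18 of the 20, by a median of 3.19-fold. Of the 15 genes named within FAP/MP-type cells this held for only 8. Cpxm2 was at 127 CPM in the other cells of the cluster and 139.9 CPM outside, Cacna1g at 24.7 and 27.5 CPM, Col8a2 at 26.0 and 24.1 CPM and Fam180a at 28.1 and 24.1 CPM. Against the other cells of the clusters that held at least 10% of members (5 and 8), 7 of the 20 genes kept a 2-fold ratio, and Clu did not (log2 ratio 0.93). In the same setting within FAP/MP-type cells, 3 of the 15 higher and 2 of the 10 lower named genes kept it.

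Clu was at 556 CPM [489 to 629] in cluster 5 members, 246 CPM [221 to 272] in the other cells of the cluster and 37.8 CPM outside. Myoc was at 4128, 2797 and 666 CPM, Igfbp3 at 167, 59.4 and 23.3 CPM, and Boc at 193, 109 and 33.2 CPM. The complement gene C2 behaved differently, at 80.0 CPM in the members but only 22.7 CPM in the other cells of the cluster and 18.9 CPM outside. Cfb was at 102 and 78.8 CPM, with overlapping intervals. Of the FAP/MP markers, Pdgfra was at 300.1 CPM in the members and 293 CPM in the other cells of the cluster, Ly6a at 1331 and 1417 CPM, and Cd34 at 705 and 769 CPM.

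**Figure D4:**
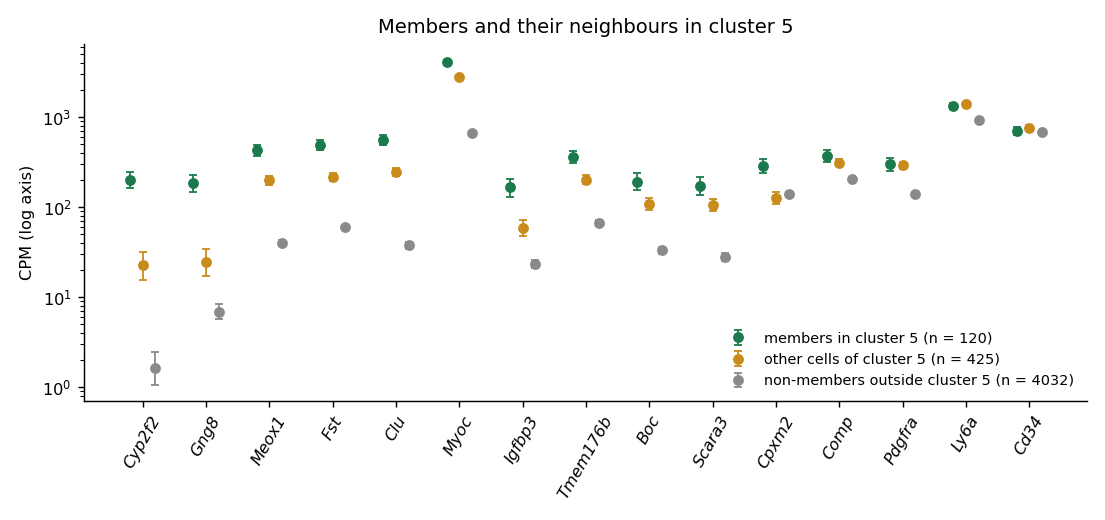
Level (CPM, log axis) of selection genes, named genes and FAP/MP markers in the 120 members of cluster 5, the 425 other cells of that cluster and the 4032 non-members outside it, with exact 95% Poisson intervals. Clu is at 556, 246 and 37.8 CPM in the 3 groups, in that order, while Pdgfra is at 300.1 and 293 CPM in the first 2 groups.

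Members in different clusters also differed in other genes, which describes the clustering, since it used the same expression values apart from the 7 selection genes. The 19 members in cluster 8 carried tendon transcripts, with Fmod (fibromodulin) at 5138 CPM against 44.5 CPM in the 120 members of cluster 5. Tnmd (tenomodulin) was at 990 against 80.0 CPM, Thbs4 at 1009 against 48.9 CPM and Comp at 1289 against 373 CPM. Pdgfra was at 46.7 CPM in these 19 cells and 300.1 CPM in cluster 5. Cyp2f2 was lower there (46.7 against 202 CPM), whereas Dkk2 was higher (374 against 187 CPM). The 36 members in the remaining clusters had less Myoc (1404 against 4128 CPM) and Clu (70.4 against 556 CPM), more Pi16 (1324 against 260 CPM) and more Acta2, the smooth muscle actin (1075 against 68.9 CPM). With the cluster 5 members left out, 268 genes were higher, 12 of the 20 named genes kept a 2-fold ratio, and 2200002D01Rik and Scara3 stood below the other cells.

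Members with different selection genes were spread differently over the clusters. Of the 63 members with Cyp2f2 or Gng8 but neither Dkk2 nor H19, 55 (87.3% [76.5 to 94.4]) lay in cluster 5 and 1 in cluster 8. Of the 58 with Dkk2 or H19 but neither Cyp2f2 nor Gng8, 29 (50.0% [36.6 to 63.4]) lay in cluster 5 and 9 in cluster 8. The 46 with a gene of each kind lay in between (65.2% in cluster 5), and 8 had no gene of either kind. The first kind had a median of 3559 UMIs and the second 4314.5, and the part of depth in the difference was not tested.

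Clu was at 630.3 CPM [534 to 739] in the first kind and 278 CPM [220.3 to 347] in the second, and Cdh11 at 167 [119 to 227] and 45.8 CPM [24.4 to 78.3]. Myoc was at 4199.5 and 2282 CPM and Scara3 at 171 and 74.0 CPM. Cpxm2 was at 271 and 264 CPM and Comp at 338 and 356 CPM, with overlapping intervals. In the 46 members with a gene of each kind both were above these levels, Cpxm2 at 458 CPM [371 to 560] and Comp at 733 CPM [621 to 860]. Meox1 was at 501 and 225 CPM, but it belonged to the selection and the kinds differed in which genes were left to fill it. Igfbp3 was at 75.1 CPM [44.5 to 119] and 204 CPM [155 to 264], but a single cell held 21 of the 58 UMIs of the second kind. Without the highest cell of each kind, left out after the data were seen, it was at 54.8 CPM [29.2 to 93.7] and 133 CPM [93.5 to 183], and the intervals overlapped. Mgp (matrix Gla protein, an inhibitor of calcification), picked after its values had been seen, was at 8290.5 and 2328 CPM.

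Markers of other cell types were looked for in the members. The 5 myogenic markers, among them Pax7 and Myod1, had no UMI in any member. Of the 7 hematopoietic markers, Ptprc, Itgam and Tyrobp were at 0, the most abundant was Cd68 at 13.0 CPM, and the list summed to 22.1 CPM in members against 43.3 CPM in other cells. No member had UMIs of 2 hematopoietic markers, and 3 counts of 175 would be 1.71% (upper bound of the exact interval 2.09%), a limit on cells with such UMIs and not on expression. Among endothelial genes Cdh5 and Emcn were at 0, and Tek, the most abundant, was at 15.6 CPM against 38.1 CPM. Of the osteoblast genes Sp7, Bglap, Bglap2 and Ibsp were at 0 in members, and the list summed to 23.4 CPM against 118 CPM. Sox9, a transcription factor of early cartilage, was at 55.8 against 67.2 CPM. In the Schwann cell list S100b was higher (57.1 against 24.1 CPM), while the defining gene Sox10 was at 0. Ngfr, a receptor found on perineurial cells, was at 81.8 against 41.3 CPM, just under 2-fold. It was the only one of 6 perineurial markers at the limits. It made up most of their sum in members (121 CPM) but not in the rest (93.5 CPM). Slc2a1, also on that list, was at 9.09 against 34.6 CPM.

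Of the tenocyte markers at least 2 of the 8 had a UMI in 56 members (32.0% [25.2 to 39.5]) and 685 other cells (15.4%), although the summed level was 2156 CPM in members and 2716 CPM in the rest. In thinned cells the shares were 18.5 and 13.5%, with overlapping intervals. Within FAP/MP-type cells the sum was 1500 CPM in members and 637 CPM in others, and Comp and Tnmd (285 against 103 CPM) were higher. The part of tendon cells in the higher matrix genes was not tested. Within cluster 5 Comp was at 373 CPM in members and 312 CPM in the other cells of the cluster, with overlapping intervals. Cpxm2 in that setting was at 289 and 127 CPM.

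Dkk2 acts on the Wnt pathway, in which secreted Wnt ligands bind Frizzled receptors with Lrp5 or Lrp6. Of 18 receptor genes in the list, 5 reached the limits, and 2 of these were higher in members and none lower, where 2.49% of all genes at the limits were higher and 3.74% lower. The median log2 ratio was 0.93 beside 0.08 for all genes. The higher genes were Fzd2, at 36.4 against 17.3 CPM, and the Dkk2-binding co-receptor Lrp5, at 26.0 against 12.8 CPM. Lrp6 was at 93.5 against 48.5 CPM, short of 2-fold. Within FAP/MP-type cells 3 receptors reached the limits and only Fzd2 was higher, where 2.73% of all genes were. Lrp5 was at 24.9 against 10.9 CPM (2.29-fold) there, but with a UMI in 9.66% of members it fell short of the detection limit. Besides Dkk2, both secreted antagonists at the limits were higher, Sfrp1 at 33.8 against 13.1 CPM and Sfrp4 at 452 against 203 CPM, although within FAP/MP-type cells only Sfrp1 was. Wnt5a, the only ligand at the limits, was at 29.9 against 17.8 CPM. None of the 10 Wnt target genes, such as Axin2, reached the limits, so the activity of the pathway could not be read from them at this depth.

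Fst binds activins and related ligands, which signal through type I and type II receptors. Of 7 receptors at the limits (of 10 listed) only Acvr2a, a type II receptor for activin, was higher, at 42.9 against 17.3 CPM, and the median log2 ratio of the 7 was 0.10. Of 6 ligands Gdf10 alone was higher. The shares over all genes, for these and the following counts, were 2.49% higher and 3.74% lower, with a median log2 ratio of 0.08. Inhba, the activin A subunit, was at 37.7 against 61.6 CPM, and Bmp2 was at 72.7 against 144 CPM, lower than in others within FAP/MP-type cells (74.8 against 162 CPM). None of the 3 other antagonists at the limits differed 2-fold, and Fstl1 was at 907 against 959 CPM. Other members of the selection genes' own families were also looked at. None of 11 imprinted genes was higher or lower, with Meg3 at 935 against 1340 CPM. Of 8 annexins only Anxa3 differed, and it was lower (140.3 against 345 CPM). Among 3 other G protein gamma subunits none differed, and among 5 genes of P450 and related oxidation only Cyp26b1, which degrades retinoic acid, was higher (40.3 against 20.0 CPM), and none was within FAP/MP-type cells.

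Of 9 transcription factors of limb and somite mesoderm at the limits (of 24 listed, median log2 ratio 0.56 beside 0.08 for all genes), Prrx2 was higher (32.5 against 12.1 CPM) and Foxc1 lower (16.9 against 56.8 CPM), against 2.49% and 3.74% of all genes. Within FAP/MP-type cells Foxc1 did not reach the limits, at 14.0 CPM in members against 24.8 CPM. Meox2, the paralog of Meox1, was at 184 against 108 CPM, and Prrx1 at 187 against 132 CPM, both short of 2-fold. None of 10 fibrillar matrix genes and none of 7 small leucine-rich proteoglycans differed 2-fold, the nearest being Bgn (biglycan) at 2531 against 1375 CPM.

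The selection was then applied to the other 4 libraries, where depth was several times greater. The libraries labelled d3 post-polytrauma (1468 cells) and d5 post-fracture (6201 cells) would match the tallies of cells in the study's source data better if exchanged. Their labels are given as deposited, and the values would move with the labels. With all UMIs, 22.6% of cells met the rule at d3 post-fracture, 21.7% in the library labelled d5 post-fracture, 52.0% in the library labelled d3 post-polytrauma and 21.6% at d5 post-polytrauma, against 3.78% at d0. The median depth of these libraries was 17963, 15688, 34949 and 15753 UMIs per cell, against 3640 at d0. These shares therefore cannot be compared without thinning.

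Thinning to 2000 UMIs left out 744 cells at d0 and 225, 83, 30 and 424 in the other libraries, in the order above. In the thinned cells the rule was met by 65 of 3888 cells at d0 (1.67% [1.29 to 2.13]), 46 of 5364 (0.858%) at d3 post-fracture, 46 of 6118 (0.752%) in the library labelled d5 post-fracture, 32 of 1438 (2.23% [1.53 to 3.13]) in the library labelled d3 post-polytrauma and 88 of 11517 (0.764%) at d5 post-polytrauma. Cells with at least 4 of the genes numbered 16 at d0 and 2, 1, 3 and 4 in the other libraries, in the order above. The interval at d0 overlapped that of the library labelled d3 post-polytrauma. With 1 library per condition, injury, time and library cannot be told apart.

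Which of the 7 genes the cells that met the rule showed in each library is set by the choice and by the level of each gene in that library, and is given as a description. After thinning, Meox1 was found in 67.7% of such cells at d0 and in 8.70%, 19.6%, 3.12% and 39.8% of those in the other 4 libraries, again in the same order. Cyp2f2 was found in 40.0% at d0, in 4.35%, 19.6% and 5.68% in 3 of the libraries, and in 0 of 32 cells (exact upper bound 10.9%) in the library labelled d3 post-polytrauma. H19 was in 41.5% [29.4 to 54.4] at d0 and in 93.5%, 91.3% [79.2 to 97.6], 96.9% and 98.9% after injury. Among all thinned cells, H19 was found in 5.79% at d0 and in 32.7%, 25.2%, 60.6% and 46.3% after injury, and Meox1 in 9.85% and in 0.671%, 1.39%, 0.417% and 3.27%. Over whole libraries H19 was at 74.3 CPM at d0 and 382, 257, 947 and 534 CPM in the others, and Meox1 at 66.2 CPM and 3.92, 9.37, 1.99 and 17.6 CPM.

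The genes named at d0 were also read in the other libraries, where 32 to 88 thinned cells met the selection and few UMIs stood behind each gene. Of the 20 named genes, 18 had intervals apart and higher in cells that met the selection at d0, where the genes were chosen, but 2 did at d3 post-fracture (Cdh11 and Myoc), 3 in the library labelled d5 post-fracture (Cdh11, Ap1s2 and Myoc), 1 in the library labelled d3 post-polytrauma (Ap1s2) and 2 at d5 post-polytrauma (Slc1a3 and Boc). By the 2-fold limit alone the numbers were 19 at d0 and 7, 7, 4 and 4 in the other libraries. In direction alone, 13, 14, 10 and 14 of the 20 ran the same way as at d0, 4 in each library gave no ratio because no such cell held a UMI, and none had intervals apart in the opposite direction. Most cells that met the selection after injury had H19, and at these counts it cannot be told whether the d0 genes accompanied them.

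**Figure D5:**
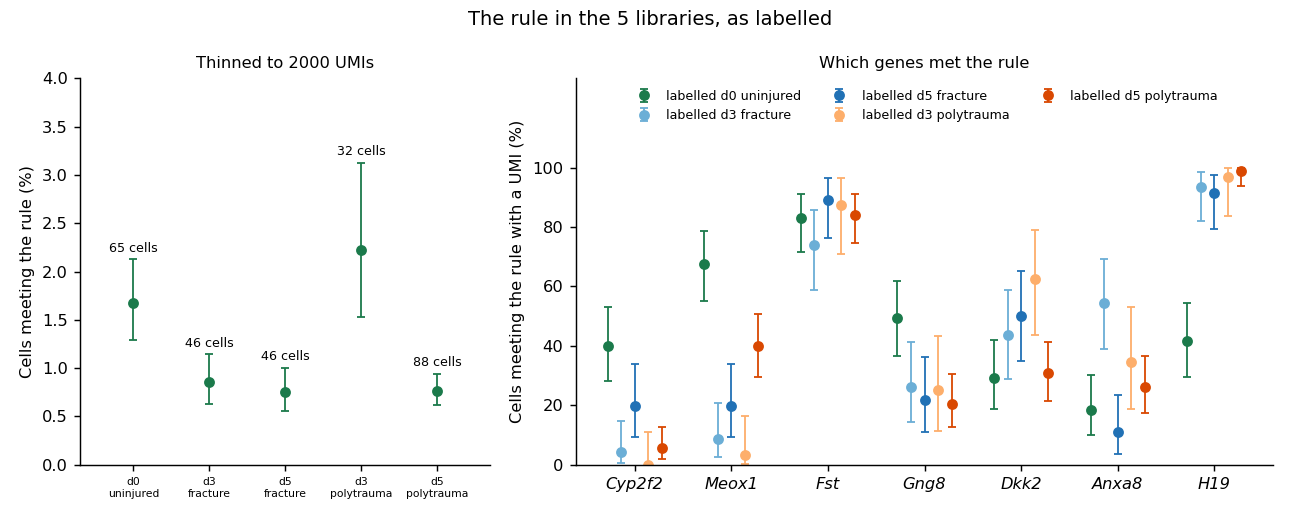
Share of cells that met the selection after thinning to 2000 UMIs (%, with exact 95% binomial intervals) on the left, and share of those cells with a UMI of each selection gene on the right, for the 5 libraries under their deposited labels. H19 was found in 91.3% or more of these cells in each of the 4 injury libraries and in 41.5% at d0.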

How the data were processed

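Libraries were made with the 10x Chromium 3' v2 kit. The authors aligned reads to mm10 (GRCm38) with Cell Ranger and deposited raw UMI counts per gene and barcode, without normalization. The matrix headers name version 3.1.0, and the submitters' notes name Seurat 3.1.2. Of 31055 gene identifiers, 31011 were found in the GENCODE annotation of GRCm38, which gave positions.

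Counts were read in Python 3.11.15 (numpy 2.4.6, scipy 1.17.1, pandas 2.3.3, matplotlib 3.10.9). The d0 library was clustered in R 4.3.3 with Seurat 5.3.0 (genes in at least 5 cells, 2000 variable genes without the 7 selection genes, 20 principal components, resolution 0.5). Doublets were scored with Scrublet in scanpy 1.11.5, as the highest scores at a rate of 0.8% per 1000 cells, and were kept. Its automatic threshold called 3 members and 38 other cells. The call of 2-fold genes was tested on simulated data, and the outcome is not reported here. No statistical test was possible with 1 library per condition. A count of 0 was taken to allow up to 3 counts.

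The members, gene lists and comparisons were chosen with earlier results of these data known. Named genes were the 20 highest and 10 lowest ratios against all other cells, and the 15 highest and 10 lowest within FAP/MP-type cells, without selection and mitochondrial genes. Genes of the lists were named besides. Some genes that met these rules are not reported here. Alternatives were the minimum of selection genes, thinning, barcodes and doublets left out, the UMI minimum, clustering settings, scaling and level limits. Conditions were taken from the deposited labels. A shared barcode was one found in another library without 10 times its UMIs.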

Additional observations from a re-analysis of the deposited data

How the results depend on the processing

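With at least 2 or at least 4 of the selection genes the members numbered 560 or 59, and 65 after thinning. Against the main 113 higher and 170 lower genes, 4 selection genes gave 405 and 338, thinning 228 higher, comparison cells from clusters 5 and 8 72 and 77, and a limit of 5 CPM without a detection limit 646 and 767. Within FAP/MP-type cells (126 and 111) these settings gave 458 and 330, 426 and 231, 54 and 49, and 694 and 576. Chosen after the data were seen, members outside cluster 5 gave 268 higher (419 and 175 within FAP/MP-type cells), and comparison cells without the pericyte-like cluster gave 80 lower. Fewer members put fewer UMIs behind each gene, and the part of this in the larger counts was not tested.

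For genes left out of the choice, the ratio moved to 14.9-fold for Gng8 and 1.59-fold for H19 in thinned cells, and to 1.68-fold for Anxa8 within FAP/MP-type cells. The share of cells meeting the selection was 1.67, 0.858, 0.752, 2.23 and 0.764% after thinning and 1.27, 4.97, 4.82, 20.6 and 4.72% with 4 genes, for d0, d3 post-fracture, the libraries labelled d5 post-fracture and d3 post-polytrauma, and d5 post-polytrauma.

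Of 240 planned settings of single genes against all cells, 172 stayed within the counting interval of the main ratio, 60 moved outside it and 8 reversed, and of 198 within FAP/MP-type cells 147, 45 and 6 did. In clusters 5 and 8 the log2 ratio was 0.30 for Nrip2, 0.17 for Apold1, 0.39 for Gm13861, 1.20 for Cnn1, 1.39 for Map3k7cl, 0.98 for Gm13889, 2.24 for Lmod1 and 1.39 for Pcp4l1, and without the pericyte-like cluster 0.48, 0.43, 0.91, 0.58, 2.26, 0.98, 1.39 and 1.20. Within FAP/MP-type cells of those clusters it was -0.29 for Col8a2, -0.34 for Comp, 0.13 for Car8, 0.47 for Vtn and 0.54 for Stmn4, and in thinned cells -0.50 for Angpt4. In members outside cluster 5 it was -0.58 for 2200002D01Rik and -0.035 for Scara3. Thinned, no member UMI of Dpp4 or Ces1d was left and no ratio was computed.

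At a median of 3640 UMIs per cell at d0, most genes were at 0 in most cells, and a selection gene at 0 in a cell does not show that it was absent. How many cells the choice missed was not measured. No paired analysis was possible because each condition has 1 library and the labels carry no replicate numbers.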

Other observations

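Further groups of genes were compared between members and the other d0 cells. Of 8 chemokine and cytokine genes at the limits 2 were lower, where 3.74% of all genes were, and the median log2 ratio was -0.48 beside 0.08 for all genes. The lower genes were Il6, at 227 CPM in members and 490 CPM in the rest, and Il33, at 15.6 and 89.7 CPM. Within FAP/MP-type cells Il33 and the eosinophil chemokine Ccl11 (781 against 1859 CPM) were lower and Il6 was not. Cxcl10, an interferon-induced chemokine, was at 290 against 164 CPM there. A list of 10 interferon-stimulated genes summed to 263 against 307 CPM in the same cells, and neither of the 2 at the limits differed 2-fold. Against all other cells Isg15 of that list was lower. Of 12 basement membrane genes none was lower against all cells, and 2 were within FAP/MP-type cells, the laminin chains Lama4 (46.7 against 96.9 CPM) and Lamb1 (60.8 against 143 CPM), where 2.4% of all genes were lower. In the elastic fibre list Efemp1 was lower (40.3 against 137 CPM), whereas elastin (Eln) was at 262 against 320 CPM.

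None of 14 immediate-early and heat shock genes, which rise during dissociation of tissue, differed 2-fold (2.49% of all genes were higher and 3.74% lower). Fos was at 5735 CPM in members and 4846 CPM in the rest, and Hspa1a at 3525 and 4891 CPM. Of the cell cycle genes only Pcna reached the limits, at 97.4 and 86.0 CPM. The 2 Hox genes at the limits, Hoxa10 and Hoxc10, were at 44.2 CPM each in members, against 33.3 and 36.5 CPM. Lpl, a lipase of fat-forming cells, was at 473 and 366 CPM, and Adipoq and Plin1 had no UMI in members. At least 2 adipogenic markers were found in 17 members (9.71%) and 156 other cells (3.50%), and in thinned cells in 3 of 65 (4.62%) and 74 of 3823 (1.94%), with overlapping intervals for the thinned shares. At least 2 perineurial markers were found in 7 members (4.0%) and 81 other cells (1.82%), and in 0 of the 65 thinned members. There 3 counts would be 4.62% (upper bound of the exact interval 5.52%), a limit on cells with such UMIs and not on expression.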
